A study of Rattus norvegicus with 4 samples.

Results

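The genes described here drive the cell cycle and copy DNA. They are 39 genes listed by symbol, of which 38 were measured among 16581 genes with a symbol on the array. A gene was measured when at least 1 probe for rat transcripts carried a RefSeq accession of that gene, and the rule itself uses no measured value. Mcm5 had no such probe and has no value here. By role, 15 measured genes belong to DNA replication, 9 to mitosis and 14 to the cyclins, cyclin-dependent kinases (CDKs) and their regulators.

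All values come from NR8383 cells, a macrophage line that was set up by lavage of a healthy rat's lung and had been passaged 20 times. It was grown with 15% serum and seeded into flasks for 48 h. The treatment was NiZnFe2O4, a nickel zinc iron oxide, for 4 h at 9.25 µg/mL. The 4 samples were biological replicates, each on its own Agilent array with Cy3 as the single dye. Arrays of the untreated cells that the study's design names were not analysed here, so the values give the state of exposed cells and its spread between replicates, and no value shows a response to the particles.

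A dividing cell first licenses its replication origins by loading the MCM helicase, then copies its DNA in S phase, and finally separates the copies in mitosis. Cyclins bind and switch on CDKs in sequence through these phases. Transcription of the genes follows the same sequence. E2F factors, held back by the retinoblastoma protein, act on many replication genes. Many mitotic genes carry a cell cycle genes homology region (CHR) in the promoter and CCAAT boxes bound by NF-Y. Alveolar macrophages in the lung divide rarely, whereas NR8383 is kept as a growing line in culture.

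Promoter sequences differed between the groups in the motifs they held, and are shown first because they separate replication from mitosis genes without any use of the array values. A window from 250 bases before to 50 bases after the gene start, from RefSeq on the rat assembly GRCr8, was found for 31 of the 39 genes, Mcm5 among them. The E2F motif was searched in 4 spellings, namely TTCCCGC as well as TTGGCGC, followed by TTCGCGC and lastly TTGCCGC. The CHR motif was searched as TTTGAA or else TTCGAA, and the NF-Y box by its letters CCAAT. All were searched on both strands, with overlapping matches of a motif counted once. Printed below are 160 bases of 6 promoters, from 150 bases before the gene start, 5′ to 3′ along the gene, with matches to any of the motifs in capitals. Mcm6 and Mcm3, subunits of the replicative helicase, stand for replication. Cdc20, an activator of the anaphase-promoting complex, and Birc5 (survivin), a subunit of the chromosomal passenger complex, stand for mitosis. Cdk1, the kinase that starts mitosis, and its partner Ccnb2 (cyclin B2) held matches of both kinds.
Mcm6 (chr13:42404343-42404502, minus strand): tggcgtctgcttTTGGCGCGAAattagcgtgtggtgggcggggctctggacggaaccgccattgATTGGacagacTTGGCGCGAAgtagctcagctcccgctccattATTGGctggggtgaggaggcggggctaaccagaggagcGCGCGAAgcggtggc
Mcm3 (chr9:30733737-30733896, minus strand): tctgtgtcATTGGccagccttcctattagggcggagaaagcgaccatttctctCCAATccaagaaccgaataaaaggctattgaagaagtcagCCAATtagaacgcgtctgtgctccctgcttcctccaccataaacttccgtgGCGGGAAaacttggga
Cdc20 (chr5:137255790-137255949, minus strand): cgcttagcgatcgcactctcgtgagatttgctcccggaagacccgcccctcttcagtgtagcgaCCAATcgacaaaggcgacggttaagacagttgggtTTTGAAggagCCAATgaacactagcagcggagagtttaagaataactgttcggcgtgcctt
Birc5 (chr10:103571996-103572155, plus strand): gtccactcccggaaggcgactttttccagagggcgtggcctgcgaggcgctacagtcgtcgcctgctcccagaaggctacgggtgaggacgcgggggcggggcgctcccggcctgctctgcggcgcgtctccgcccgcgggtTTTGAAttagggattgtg
Cdk1 (chr20:19265143-19265302, plus strand): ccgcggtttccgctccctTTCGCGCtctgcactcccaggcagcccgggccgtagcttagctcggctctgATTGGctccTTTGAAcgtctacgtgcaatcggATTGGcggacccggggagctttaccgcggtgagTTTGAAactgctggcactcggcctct
Ccnb2 (chr8:79981649-79981808, minus strand): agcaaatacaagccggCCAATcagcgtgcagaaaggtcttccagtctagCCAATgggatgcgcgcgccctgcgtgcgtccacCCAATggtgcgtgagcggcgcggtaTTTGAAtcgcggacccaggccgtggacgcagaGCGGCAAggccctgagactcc
In Mcm6 the E2F matches began 138, 75 and 5 bases before the start, with CCAAT boxes at 86 and 43 bases. In Cdc20 a CHR match began 51 bases before the start, between CCAAT boxes at 86 and 41 bases. In Birc5 the CHR match began 8 bases before the start.

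An E2F match was found in 11 of 13 replication promoters, 1 of 8 mitosis promoters and 5 of 10 cyclin and CDK promoters, against 9.52% of all 33469 promoter windows of the same length. Gins2 and Pcna were the replication genes without a match, and Mki67 was the mitosis gene with one. A CHR match was found in 6 of 8 mitosis promoters, 3 of 13 replication promoters and 3 of 10 cyclin and CDK promoters, against 19.7% of all windows. Aurka and Bub1 were the mitosis genes without a match in the window. Gene starts were taken as annotated and not checked. Just after the annotated Aurka start the window holds an ATG with an open reading frame. That window may therefore not be the promoter, and its lack of a match cannot be read as a trait of the Aurka promoter. CCAAT boxes were found in 7 of 13 replication, 4 of 8 mitosis and 7 of 10 cyclin and CDK promoters, against 37.5% of all windows. The median GC content was 60.0% in replication promoters, 56.8% in mitosis promoters and 51.7% in all windows, and its part in these shares was not tested. With TTTGAA alone as the CHR motif, the mitosis count was 6 and the replication count 1, against 18.3% of all windows. On the gene's own strand alone, an E2F match was found in 9 replication promoters and in 2 of the cyclin and CDK promoters, against 4.90% of all windows. In the bases before the gene start alone, E2F matches were found in 8 of 13 replication promoters and 1 of 8 mitosis promoters, against 7.59%, and CHR matches in 4 of 8 mitosis and 3 of 13 replication promoters, against 17.4%. A match describes these letters only and shows no binding.

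**Figure D1:**
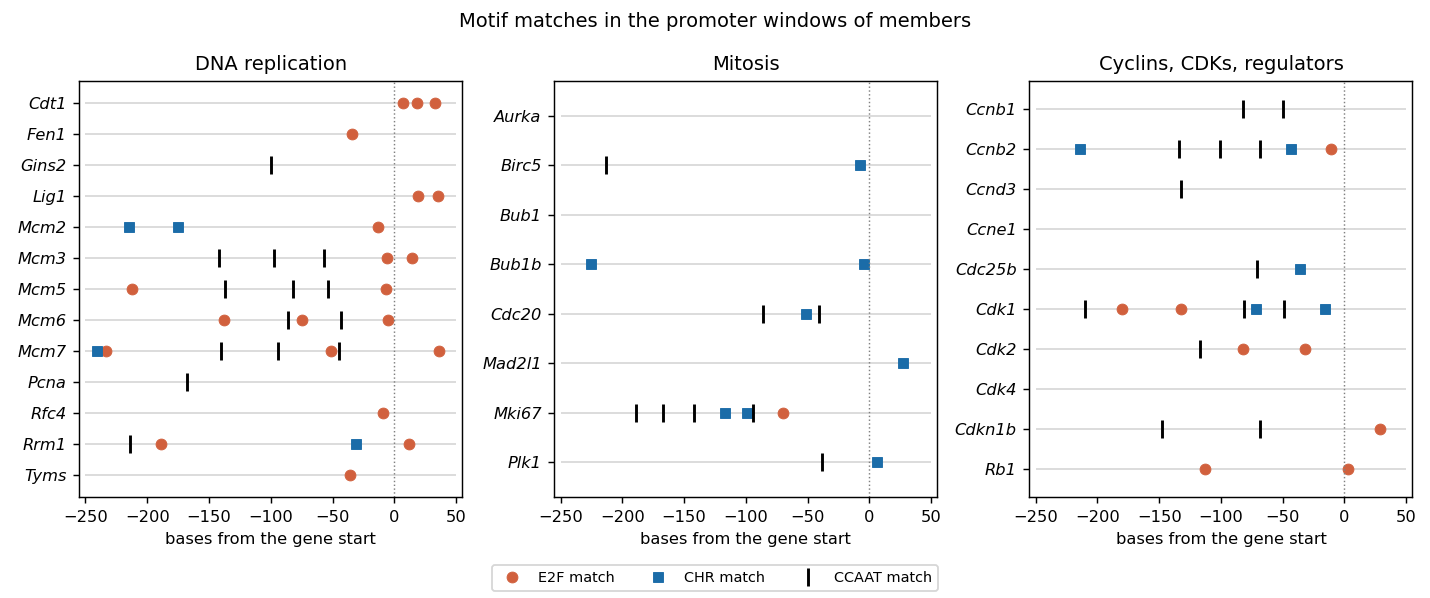
Position of E2F (circles), CHR (squares) and CCAAT (bars) matches in the promoter windows of 31 genes, by role, in bases from the gene start (0, dotted line). E2F matches lie in 11 of 13 replication promoters and 1 of 8 mitosis promoters, and CHR matches in 3 of 13 and 6 of 8.

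Transcripts of every measured gene of the 3 groups were present. All 38 were well above background on each of the 4 arrays, a share of 38.7% among all genes with a symbol. This flag is set by the array software per spot, and a gene passed when any of its probes did. The list was assembled with earlier results of these arrays known, so the count describes it and is no independent support. When every probe of a gene had to pass, 31 genes remained, against 33.2% of all genes. They were 12 of replication, 6 of mitosis and 13 of the cyclin and CDK group. No spot of these genes was saturated. Each array carried 58717 spots for rat transcripts, of which 21812 to 24981 were well above background.

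The cells carried macrophage markers. Of 14 such markers 9 passed on every array, Cd68, Lyz2, Csf1r, Spi1 and Tyrobp among them, while Marco, Cd163 and Adgre1 passed on no array. Of 10 lung epithelial markers 1 passed (Foxj1), of 7 lymphocyte markers 2 (Lck and Pax5) and of 8 fibroblast and endothelial markers 3 (Dcn, Cdh5 and Vwf). Of all genes with a symbol 38.7% passed, so the fibroblast and endothelial share of 37.5% was near it. Vwf, a marker of endothelial cells, stood at 5.05 ± 0.30 and Pax5, a marker of B cells, at 2.01 ± 0.26 (SD, n = 4 each). Presence of other cell types was not tested.

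Levels below are log2 signals from which the array's own 75th percentile was subtracted, so a level of 0 lies at that percentile and 1 unit is a doubling of signal. Probes differ in how brightly they bind, so levels are compared between arrays for the same gene and not between genes. The percentile itself ranged from 4.55 to 5.38 on the log2 scale, with replicate 1 the brightest array.

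The spread of replication genes between replicates went with the number of spots and with brightness. Their median SD was 0.15 log2 units, against 0.23 over all 6418 genes well above background. It was 0.14 for the 7 genes in 10 spots, 0.21 for the 2 genes on 2 spots and 0.35 for the 6 genes on a single spot. Mean levels ran from 4.82 (Fen1) to 6.51 (Mcm2) in 10 spots and from -0.15 (Cdt1) to 2.74 (Mcm6) on a single spot. The separate parts of spot number and brightness were not tested. Mcm2, Mcm3, Mcm4, Mcm6 and Mcm7 encode subunits of the ring-shaped helicase that unwinds DNA at the fork. Mcm2 stood at 6.29, 6.49, 6.70 and 6.55 on replicates 1 to 4. Mcm7 stood at 5.04, 5.28, 5.36 and 5.35. Mcm3 stood at 4.89 on replicate 1 and at 5.19 to 5.25 on the others. In these 3 genes replicate 1 was the lowest array, by 0.20 to 0.30 log2 units from the next. Mcm6 was also lowest there, at 2.36 against 2.71 to 3.06. Mcm4 went the other way, at 3.55 on replicate 1, 3.22 and 3.23 on replicates 2 and 3 and 2.87 on replicate 4. Subunits of the same helicase thus did not share an order of arrays.

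Cdc6 and Cdt1 load the helicase onto origins, and Gins2 belongs to the complex that activates it. Cdc6 stood at 1.01, 1.34, 1.30 and 1.13. Cdt1 stood at -0.38, -0.54, 0.41 and -0.10. Gins2 stood at -0.30 on replicate 1 and at 0.44 to 0.72 on the others, a 2.03-fold range of signal. These 3 levels each rest on 1 spot per array. A second Gins2 probe, also on a single spot, passed on no array and had a mean of -2.51.

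The clamp, nuclease and ligase that work on the lagging strand were among the steadier genes by their brightest probes and in the reported scaling. Pcna, the sliding clamp of DNA polymerases, stood at 4.71 ± 0.14 (SD, n = 4). Fen1, the flap nuclease, stood at 4.82 ± 0.14, and Lig1, the ligase that joins Okazaki fragments, at 5.64 ± 0.08 (SD, n = 4 each). With the percentile over probes above background the SDs were 0.17 for Pcna, 0.14 for Fen1 and 0.13 for Lig1. After quantile normalization they were 0.18, 0.14 and 0.15. A second Lig1 probe, in 2 spots, had an SD of 0.18. Rfc4, a subunit of the clamp loader, varied most in the replication group, with 0.86, 1.21, 1.30 and 0.23 on replicates 1 to 4. Against the median of the remaining arrays, replicate 4 deviated by -0.99, while the 16 measured spots within 5 rows and columns of it had a median deviation of -0.18.

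Of the enzymes that supply nucleotides, Rrm1, Rrm2 and Tyms had nearly the same level on every array by their brightest probes and in the reported scaling. Rrm2, the small subunit of ribonucleotide reductase, whose level limits the supply of deoxynucleotides, had intensities of 3248, 2424, 1823 and 1816 units before scaling. After scaling these became 6.29, 6.21, 6.28 and 6.20, a 1.06-fold range with an SD of 0.05. The SD was 0.10 with the percentile taken over probes above background and 0.13 after quantile normalization. A second Rrm2 probe, on a single spot, ran from 1.05 to 1.63 with an SD of 0.23. Rrm1, the large subunit, stood at 5.74 ± 0.07 and Tyms, thymidylate synthase, at 1.79 ± 0.07 (SD, n = 4 each). The Rrm1 SD was 0.14 with the percentile over probes above background and 0.16 after quantile normalization. For Tyms these values were 0.07 and 0.06. Other enzymes of the supply, from the further replication list, varied more: Tk1, thymidine kinase, ran from 5.17 to 5.83 and Dut, the dUTPase, from 3.13 to 3.74.

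**Figure D2:**
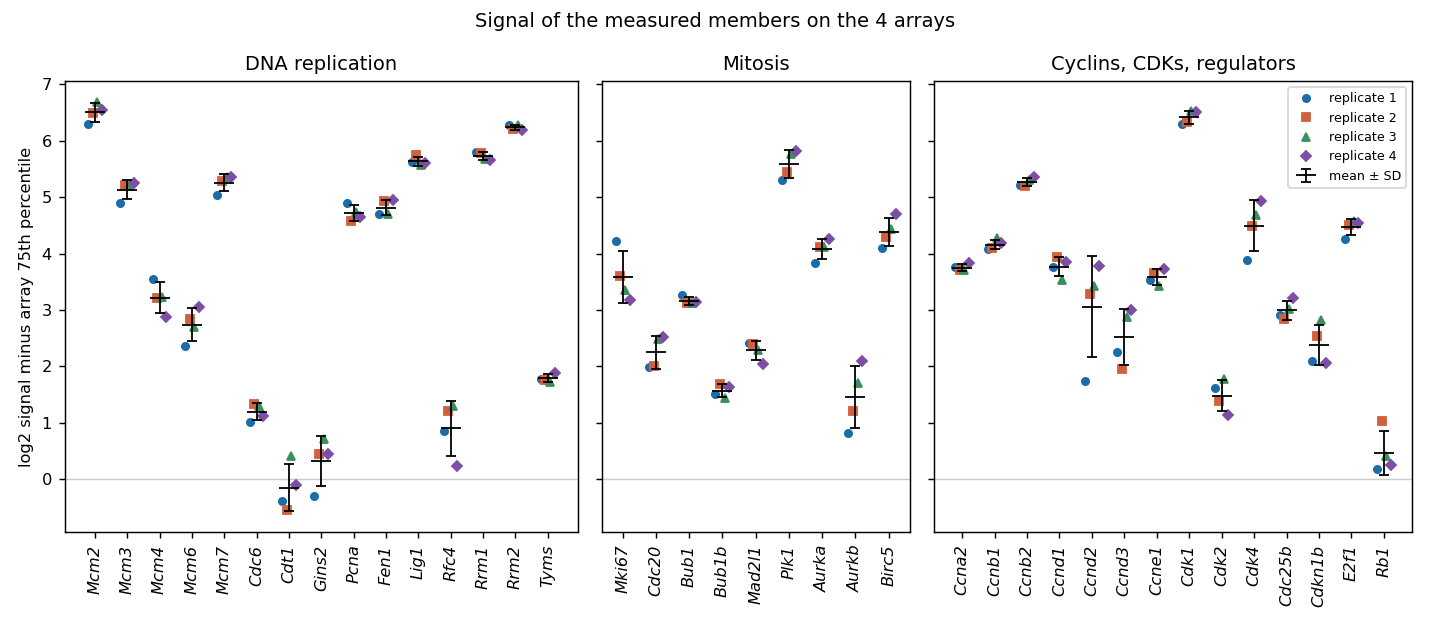
Level of 38 genes on the 4 arrays (log2 signal minus the array's 75th percentile), with symbols for replicates and black bars for mean ± SD over 4 replicates. Rrm2 spans 6.20 to 6.29, and Ccnd2 spans 1.75 to 3.78 with replicate 1 apart.

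Mitosis genes had a median SD of 0.25 log2 units. Mki67, whose protein Ki-67 coats mitotic chromosomes and marks cycling cells, had the largest SD among genes printed in 10 spots. Its intensities were 782, 396, 239 and 225 units on replicates 1 to 4. Its levels were 4.23, 3.60, 3.35 and 3.18, so replicate 1 lay 0.63 above the next array. Fewer cycling cells and less of the RNA per cell cannot be told apart in such samples.

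The spindle checkpoint holds anaphase back until chromosomes are attached. Its genes Bub1, Bub1b and Mad2l1 were steady by their brightest probes and in the reported scaling. Bub1, a checkpoint kinase, stood at 3.16 ± 0.07. Bub1b, which encodes BubR1, stood at 1.57 ± 0.11 and Mad2l1, which encodes Mad2, at 2.28 ± 0.17 (SD, n = 4 each). Bub1b and Mad2l1 levels each rest on a single spot, and a further probe of each gene passed on no array. Another Mad2l1 probe passed on all 4 arrays, with an SD of 0.08. With the percentile over probes above background the Mad2l1 SD was 0.24, against a median of 0.22 over all genes. Cdc20, the target of this checkpoint, stood at 1.99 and 2.01 on replicates 1 and 2 and at 2.48 and 2.52 on replicates 3 and 4.

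By their brightest probes, Plk1, Aurka, Aurkb and Birc5 were lowest on replicate 1 and highest on replicate 4, as was Cdc20. Of all genes well above background, 37.4% were lowest on replicate 1 and 37.1% highest on replicate 4. The share with both was not counted. Plk1, the polo-like kinase, stood at 5.31, 5.44, 5.77 and 5.82. Aurka, the kinase of spindle poles, stood at 3.83, 4.11, 4.11 and 4.27. A second Aurka probe, on a single spot, passed on 3 of 4 arrays. It was lowest on replicate 4, at -0.37, -0.26, 0.12 and -0.84. Birc5 stood at 4.10, 4.29, 4.44 and 4.70. Aurkb, the kinase of the chromosomal passenger complex, spanned 0.82, 1.21, 1.71 and 2.09, a 2.41-fold range with an SD of 0.56. Mki67 had the opposite arrangement, with its highest level on replicate 1 and its lowest on replicate 4. Mki67 and these genes therefore gave different orders of the same 4 arrays.

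By their brightest probes, mitotic and S-phase cyclins were the steadiest of the cyclin and CDK group. Ccna2, the cyclin A of S phase and G2, stood at 3.76, 3.70, 3.71 and 3.83. Ccnb1 stood at 4.09, 4.09, 4.27 and 4.19 and Ccnb2 at 5.22, 5.20, 5.30 and 5.35. Their kinase Cdk1 stood at 6.29, 6.34, 6.53 and 6.50. The range of signal over the arrays was at most 1.18-fold in these 4 genes. Ccnb1 and Ccnb2 rest on 2 spots per array, with median SDs between spots of 0.12 and 0.26. Their SDs between arrays, 0.09 and 0.07, were smaller than this. A second Ccna2 probe, on a single spot, passed on 2 of 4 arrays and had a mean of -0.66. Ccne1, the cyclin E of the entry into S phase, stood at 3.58 ± 0.14 and its kinase Cdk2 at 1.48 ± 0.28 (SD, n = 4 each).

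D cyclins, which link growth signals to CDK4, differed in how far they varied. Ccnd1 stood at 3.77, 3.93, 3.53 and 3.85. Ccnd2 stood at 1.75 on replicate 1 and at 3.29, 3.43 and 3.78 on the others, a 4.07-fold range and the largest SD of all 38 genes, 0.90. The 24 measured spots around its spot had a median deviation of -0.13 on that array. Ccnd3 stood at 2.26, 1.95, 2.87 and 3.00, and its low value on replicate 2 lay in an area of lowered signal, where 22 neighbouring spots had a median deviation of -0.65. Among the 19 genes measured by a single spot, Ccnd3 alone had neighbours more than 0.5 log2 units low on any array. Cdk4 itself stood at 3.88 on replicate 1 and at 4.49, 4.68 and 4.93 on the others.

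The remaining genes of this group, Cdc25b, Cdkn1b, E2f1 and Rb1, were measured by single spots. Cdc25b, a phosphatase that activates CDKs, stood at 3.00 ± 0.17 (SD, n = 4). Cdkn1b, which encodes the CDK inhibitor p27, stood at 2.10, 2.54, 2.82 and 2.07. E2f1, the E2F activator, stood at 4.26 on replicate 1 and at 4.51 to 4.57 on the others. Rb1, the retinoblastoma protein that restrains E2F, stood at 1.03 on replicate 2 and at 0.17 to 0.42 on the others.

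More than a 2-fold range between the highest and the lowest array was found for 7 of the 38 genes, against 9.05% of all genes well above background. They were Gins2, Rfc4, Mki67, Aurkb, Ccnd2, Ccnd3 and Cdk4. An SD above 0.5 log2 units was found for 2 of the 38, Ccnd2 and Aurkb, against 5.73% of those genes. By number of spots, the median SD was 0.29 for the 19 genes on a single spot, 0.11 for the 8 on 2 spots and 0.15 for the 11 on 10 spots. The replication group held 7 of the genes in 10 spots, the mitosis group 2 and the cyclin and CDK group 2. Among genes on a single spot the median SD was 0.35 for replication, 0.25 for mitosis and 0.32 for cyclins and CDKs, so the order of replication and mitosis was the reverse of that over all their genes. In 10 spots it was 0.14, 0.36 and 0.15.

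Probes printed in 10 spots showed how much of the spread arose within an array. Among the 11 such probes well above background on all 4 arrays, the median over arrays of the SD among spots lay between 0.05 and 0.09 log2 units. On single arrays this SD ran from 0.019 (Mcm2, replicate 1) to 0.23 (Lig1, replicate 4). The SD between arrays was larger than the median spot SD in 9 of the 11. It was 5.69 times the spot SD for Mki67 and 3.94 times for Plk1, so these differences between replicates were larger than the spot error. For Rrm2 the ratio was 0.49 and for Lig1 0.96. An array's level is a mean over its spots and has a smaller spot error than a single spot, so these ratios do not show that the arrays had the same level.

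**Figure D3:**
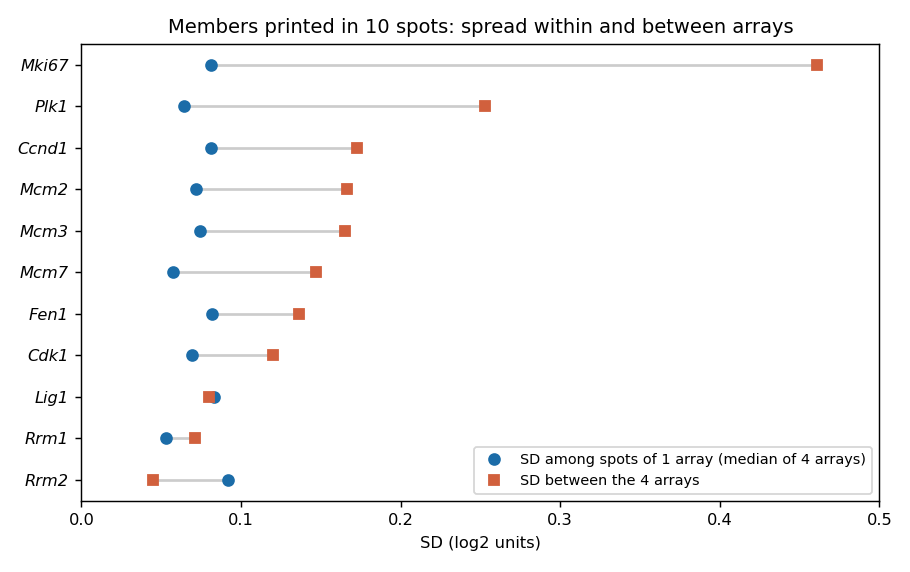
SD among the spots of 1 array (circles, median of 4 arrays) and SD between the 4 arrays (squares), in log2 units, for 11 genes printed in 10 spots. Mki67 has the widest gap, at 0.08 and 0.46, and Rrm2 the reverse, at 0.09 and 0.05.

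Different probes of a gene gave a further check. Of 15 genes with more than 1 probe, 8 had all probes well above background and 7 had some. Mki67 had 4 probes. The second, in 2 spots, stood at 3.14, 2.81, 2.44 and 2.25 and so gave the same order of arrays as the first. Another gave 0.81, 0.64, 0.38 and -0.14, again highest on replicate 1. The remaining probe gave 0.46, 0.60, 0.90 and 0.92, lowest on replicate 1. The higher level on replicate 1 was thus seen by 3 of 4 probes. For Mcm4, a second probe in 2 spots stood at 3.38, 3.15, 3.15 and 2.73, and the difference between the probes was 0.12 ± 0.05 (SD, n = 4). Both had replicate 1 highest and replicate 4 lowest, while the remaining Mcm4 probe passed on 2 of 4 arrays and was lowest on replicate 1, at -1.50, -1.17, 0.64 and close to 0.

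Other probe pairs did not give one picture. The second Cdkn1b probe stood at 1.07, 2.34, 2.89 and 2.63, and the first minus the second ran from -0.56 to 1.03. The second Ccnd1 probe stood at 3.14, 3.40, 3.38 and 3.85, with replicate 1 lowest where the first had replicate 3. The second Rrm1 probe had a mean of -0.01 against 5.74 and stood at -0.63 on replicate 1 and 0.59 on replicate 4. The steady level of Rrm1 therefore rests on the probe in 10 spots and on the reported scaling. Ccnb2 probes differed by 1.93 ± 0.20 (SD, n = 4), and the second had a wider span, 3.06 to 3.58.

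**Figure D4:**
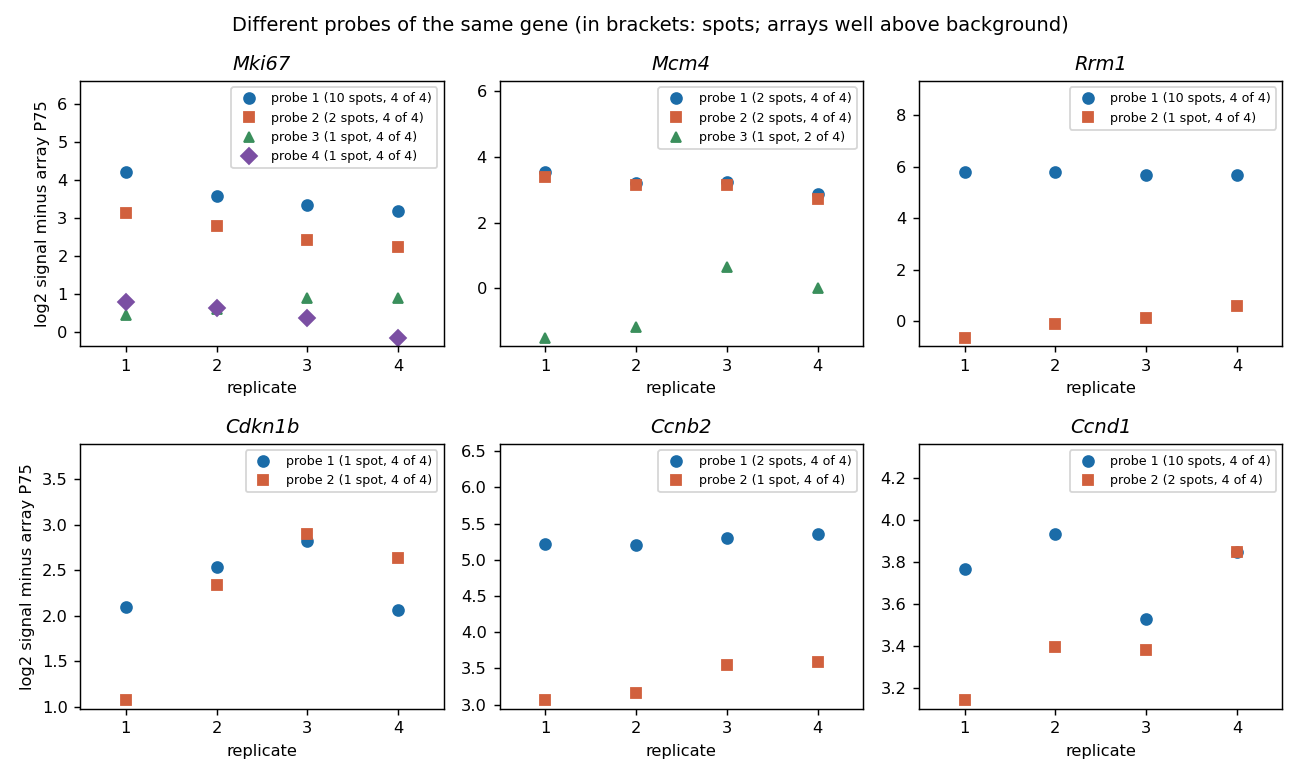
Levels of the different probes of 6 genes on replicates 1 to 4 (log2 signal minus the array's 75th percentile), with the number of spots and of arrays well above background in the legend. Probes 1 and 2 of Mki67 and of Mcm4 are highest on replicate 1 and lowest on replicate 4, and the Cdkn1b probes differ in order.

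Deviations of each gene from its own mean were then averaged by group and array. On replicate 1, 29 of the 38 genes lay below their own mean, against 59.0% of all genes well above background. On replicates 2, 3 and 4 these counts were 18, 12 and 13, against 52.3%, 46.3% and 39.8% of those genes. Replicate 1 was the lowest array for 18 of the 38, against 37.4%. The lowest array was replicate 2 for 7, replicate 3 for 5 and replicate 4 for 8, against 19.1%, 22.5% and 21.1%. The mean deviation on replicate 1 was -0.11 log2 units for replication, -0.10 for mitosis and -0.23 for the cyclin and CDK group, against -0.06 over all genes well above background. In the cyclin and CDK group 12 of 14 genes lay below their mean on replicate 1. None had its highest level there, against 22.3% of all genes well above background. Ccnd2 contributed a deviation of -1.31 to the group's mean deviation, and the group's median deviation was -0.11. On replicate 4 the mean deviation was -0.02 for replication and 0.12 for mitosis, against 0.06 over all genes. Rn18s, which encodes 18S ribosomal RNA, stood at 5.04 on replicate 1 and at 7.15 to 8.13 on the others. Its part, and that of the brighter signal of replicate 1, in these deviations was not tested. Without scaling the signs on replicate 1 turned, to 0.37, 0.38 and 0.25 in the 3 groups against 0.42 over all genes. Scaling subtracts the same value from every gene of an array, so it cannot change the gap between a group and all genes.

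**Figure D5:**
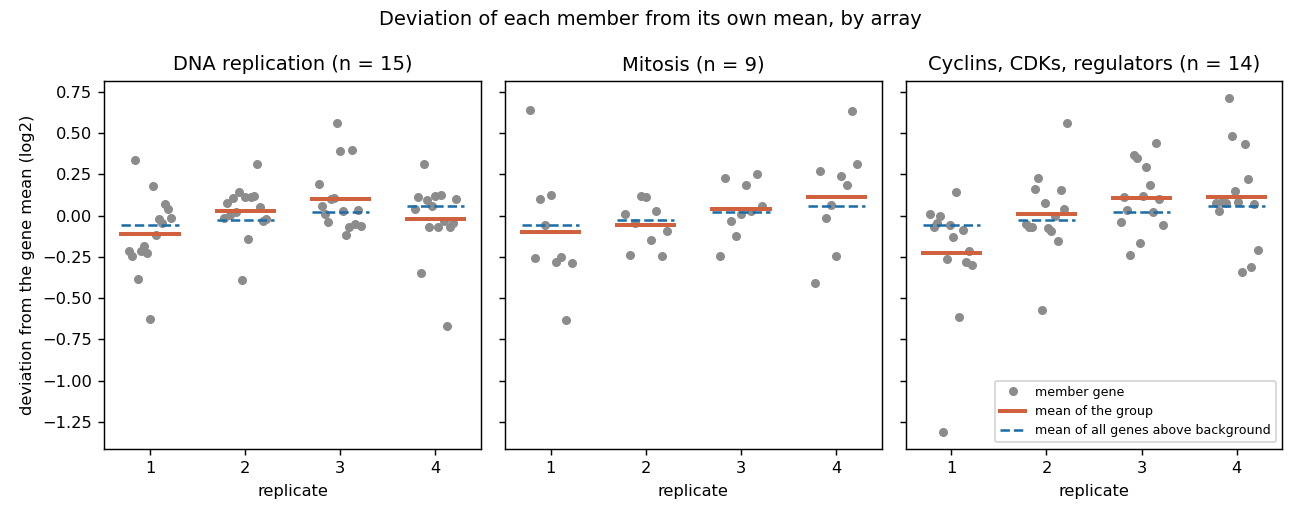
Deviation of each gene from its own mean over 4 arrays (log2, grey points), by replicate and group, with the group mean (solid line) and the mean of 6418 genes well above background (dashed line). On replicate 1 the cyclin and CDK group averages -0.23, with Ccnd2 at -1.31.

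Other genes of the cell cycle, from lists drawn up by role, showed where the machinery was not measurable. Of 36 other replication genes 23 passed on every array, of 26 other mitosis genes 24, of 21 other cyclin, CDK, E2F and pocket protein genes 13, and of 6 other CDK inhibitors 4. The share over all genes is the 38.7% given above. The origin recognition complex marks the sites where replication starts. Of its subunit genes Orc4 passed on all arrays, at 0.67 ± 0.40 (SD, n = 4), while Orc3 passed on 3 arrays, Orc6 on 2, Orc1 and Orc2 on 1 and Orc5 on none. Of the partners of Gins2 in the GINS complex, Gins1 and Gins4 passed on all arrays, at 4.30 ± 0.17 and 2.92 ± 0.15 (SD, n = 4 each). Gins3 was above background on 3 arrays. Partners of Rfc4 in the clamp loader all passed, with Rfc3 at 4.47 ± 0.24 and Rfc5 at 3.03 ± 0.18 (SD, n = 4 each). Rrm2b, the alternative small subunit of ribonucleotide reductase, passed on no array, whereas Rrm2 passed on all.

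Among polymerase genes, the delta subunits Pold1, Pold2, Pold3 and Pold4 passed on all arrays, and the catalytic subunits of polymerases alpha and epsilon, Pola1 and Pole, passed on none. A transcript that is not well above background has an upper bound only, and a weak probe and a low transcript level cannot be told apart. Pole had 3 probes and Pola1 had 1.

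Passenger complex and checkpoint partners passed, among them Incenp at 3.23 ± 0.26, Bub3 at 5.52 ± 0.16 and Ttk at 2.70 ± 0.15 (SD, n = 4 each). Foxm1, a transcription factor of mitotic genes, stood at 3.40 ± 0.03 (SD, n = 4). Cdca8, a further passenger subunit, stood at -0.85 and -0.42 on replicates 1 and 2 and at 0.34 and 0.22 on replicates 3 and 4, and like Aurkb was lowest on replicate 1. Cenpf and Cdc27 were the mitosis genes that did not pass on all arrays.

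In the cyclin and CDK list Cdk6, the relative of Cdk4, passed on no array with any of 3 probes. E2f3, E2f7, the pocket protein gene Rbl1, Skp2, Chek1 and the germ-cell cyclin Ccna1 also passed on none, and Chek2 on 1. Rbl2 passed, at 1.53 ± 0.37, as did E2f4, at 3.30 ± 0.30 (SD, n = 4 each). Of the CDK inhibitors, Cdkn1a, which encodes p21, stood at 5.07, 5.16, 5.46 and 5.39 on replicates 1 to 4. Cdkn2d had its highest level, 2.03, on replicate 3. Cdkn2c stood at 0.33 ± 0.35 and Cdkn2b at 0.16 ± 0.21 (SD, n = 4 each). Cdkn2a and Cdkn1c passed on no array. Transcripts of the CDK inhibitors p21 and p27 were thus present together with those of Mki67, the MCM helicase and the mitotic cyclins in the same RNA samples.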

How the data were processed

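In all, 4 arrays were analysed, 1 per replicate of 1 group. Per the submitters' processing notes, images were read with Agilent Feature Extraction 11.0.1.1. Deposited signals are linear intensities, and spot flags are coded 0 or 1. The signals are corrected for background and for a spatial trend within the array, per the file headers, and not scaled between arrays. The headers put the arrays on 1 slide with 1 scan time. Extraction quality was graded "in range" for replicates 1 and 3 and "evaluate" for replicates 2 and 4.

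Left out were 4259 control spots and 491 to 828 outlier spots per array. Log2 signals were averaged over the spots of each of 45598 probes. A probe passed if a share of 0.5 or more of its spots were well above background. Accessions without versions were matched to RefSeq transcripts of GRCr8, which gave 21109 probes a single symbol and left 24489 unnamed. The array design cites another build, so probes have no coordinates here. The brightest probe by mean gave the level of a gene. With 1 group no test between conditions was possible, and the number of arrays limits precision. All members are named. Other genes are named as members of the same complex or family or to spell out a count. Foxm1, Rn18s, Tk1, Dut and the Pold genes fall outside this rule and were chosen after their values were seen, as were the markers given as examples. The members and lists were chosen with earlier results of these data known. Alternatives were other background flags, scalings, probe rules and leaving out each replicate. Normexp correction used the median spot signal (limma 3.58.1, R 4.3.3). The other steps used Python 3.11.15, numpy 2.4.6 and pandas 2.3.3. The procedures were tested on simulated data.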

Additional observations from a re-analysis of the deposited data

Results flagged for a closer look

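Of 38 genes tested for 1 array apart from the other 3, Mcm3 exceeded Dixon's 95% critical value, with a ratio of 0.834. Chance gives about 1 in 20, and 315 of 6418 genes well above background (4.91%) exceeded it. Mcm3 stood at 4.89 on replicate 1 and at 5.21, 5.19 and 5.25 on replicates 2 to 4. Its probe was printed in 10 spots, with a spot SD of 0.07 log2 units. A second Mcm3 probe, on a single spot, passed on 3 of 4 arrays and stood at -1.01, -0.55, -1.77 and -0.42.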

How the results depend on the processing

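The count of 38 genes well above background held with the looser background flag, with 3 of 4 arrays and without any 1 replicate, and was 31 when every probe of a gene had to pass. Median SDs were more dependent on the setting. For all 38 genes the value of 0.17 became 0.35 without scaling, 0.15 with normexp and quantile normalization and 0.21 with the mean of all probes, against 0.38, 0.16 and 0.23 over all genes, and lay between 0.16 and 0.20 when 1 replicate was left out. For replication it became 0.37 without scaling and 0.21 with the mean of all probes, both close to the all-gene values, and was 0.10 to 0.18 with 1 replicate left out, the lower value without replicate 1. For mitosis it became 0.19 with the percentile over probes above background, 0.18 with quantile and 0.17 with normexp and quantile normalization, against 0.22, 0.22 and 0.16 over all genes. The mitosis value, 0.25 against 0.23 in the reported setting, thus fell below all genes under the first 2 of these settings. It was 0.17 to 0.29 with 1 replicate left out. For cyclins and CDKs the value of 0.17 became 0.35 without scaling and 0.13 with normexp and quantile normalization, and was 0.16 to 0.20 with 1 replicate left out. Without scaling, mean deviations on replicates 1 to 4 were 0.33, 0.13, -0.25 and -0.21 for all 38 genes, and 0.37, 0.16, -0.24 and -0.29 for replication. They were 0.38, 0.077, -0.30 and -0.15 for mitosis, and on replicates 1, 3 and 4 were 0.25, -0.24 and -0.16 for cyclins and CDKs. Unscaled signals carry the brightness of the array: all genes stood at 0.42, 0.11, -0.32 and -0.21. With normexp and quantile normalization the replication deviation on replicate 1 was -0.019. The promoter alternatives were chosen after seeing the data: on the gene strand alone 2 cyclin and CDK promoters held an E2F match, and with TTTGAA alone 1 replication promoter held a CHR match. Before the gene start alone, 8 replication promoters held an E2F match and 4 mitosis promoters a CHR match. No paired analysis was possible because the labels hold 1 group. Genes on a single spot, and levels near 0, are measured least precisely.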
